A study of Mus musculus with 9 samples.

Results

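miR-451, miR-486 and miR-144 are the miRNAs of red blood cells, and their levels were followed in extracellular vesicles (EVs) of bronchoalveolar lavage fluid (BALF), the fluid rinsed from the airways. Members were all entries of the deposited table whose name, without the species prefix, belongs to the hairpins mir-451, mir-486 or mir-144, with both arms and all isomiRs, which are variants with a shifted 5′ end. This gave 8 of 1308 entries, from 3 of 299 hairpins: 4 entries of mir-451, 2 of mir-486 and 2 of mir-144. Small RNA was sequenced by the authors in 9 pools of EV RNA from female C57BL/6J mice, 8 to 10 weeks old, that breathed filtered air (FA), 1 ppm ozone (O3) or 2 ppm O3 for 3 h, with lavage 21 h later. There were 3 pools per exposure. The FA pools combined BALF of 4 mice and the O3 pools of 3 mice, so that pool size and O3 cannot be told apart, and no mouse was measured alone. The comparisons ask whether inhaled O3 changed the level of these miRNAs in lung EVs and whether they moved together from pool to pool.

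miR-451 and miR-144 are cut from one transcript that the factor GATA1 switches on in red cell precursors. miR-486 comes from an intron of Ank1, the gene of ankyrin of the red cell membrane, and is made in muscle as well as in red cells. Mature red cells have no nucleus but keep large amounts of miR-451 and miR-486-5p, so both are used as signs of blood or of burst red cells in plasma and other fluids. miR-451 is unusual among miRNAs in that Dicer does not make it. Its hairpin is too short for Dicer and is cut by AGO2, which leaves a single mature product and no partner strand.

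Sequences of Mir451a and Mir144 are those of the RefSeq miRNA sequence table used here (GRCm38.p6), to which 2 of the 3 hairpins were matched. The mature sequences are shown because the seed, the bases 2 to 8 that pair with target mRNAs, sets each of these miRNAs apart. The seed is in capitals, and each line runs 5′ to 3′.
miR-451a: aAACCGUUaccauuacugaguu
miR-144-5p: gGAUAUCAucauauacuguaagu
miR-144-3p: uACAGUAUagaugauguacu
None of the 3 seeds occurred in another of the 1679 mature miRNAs of that table.

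The annotated hairpins show where the mature products lie, and do not show how they are cut. Mature products are in capitals.
Mir451a: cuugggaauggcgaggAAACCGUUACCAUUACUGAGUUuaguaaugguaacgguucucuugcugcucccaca
Mir144: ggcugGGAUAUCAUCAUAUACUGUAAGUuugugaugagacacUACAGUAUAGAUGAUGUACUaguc
In the 72 bases of Mir451a, miR-451a takes positions 17 to 38, and no second product is listed. In the 66 bases of Mir144, the 5p product takes positions 6 to 28 and the 3p product positions 43 to 62. Both hairpin sequences were identical to mm9, the build of the deposited data, at their annotated positions. In mm9, mir-144 lies at chr11:77886507-77886572 and mir-451 at chr11:77886672-77886743, both on the plus strand, with 99 bases between them. Both are intergenic, and mir-451 ends 134 bases from the nearest other gene, Eral1. mir-486 lies at chr8:24253027-24253154 on the plus strand inside Ank1, which is on the same strand, and overlaps no exon of it. Gm15816, annotated on the other strand, also spans it.

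Levels are in RPMMM, reads scaled to one common total of miRNA reads, so that each is a share of the miRNA reads of its pool. In bulk EV RNA, fewer vesicles of a source and less RNA per vesicle cannot be told apart. The spacing of low values gave an estimate of 281550 to 860975 miRNA reads per pool, of which the 2 ppm O3 pools had the fewest (281550 to 300900). The lowest value above 0 was equal to about 10.0 to 10.5 reads in every pool, so that an entry listed at 0 may have had reads below this minimum. The 3 hairpins together took up little of the miRNA reads. Their share was 0.0884%, 0.0943% and 0.182% in the FA pools, 0.0150%, 0.0343% and 0.0265% after 1 ppm O3, and 0.0158%, 0.0347% and 0.0948% after 2 ppm O3. Every 1 ppm O3 pool lay below every FA pool, whereas the highest 2 ppm O3 pool lay above the 2 lower FA pools.

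miR-451, the member with the highest mean, was listed in all 9 pools. It was at 372 RPMMM in FA pool 1, 438 in FA pool 2 and 984 in FA pool 3, with a mean of 598 ± 336 RPMMM (SD, n = 3 pools). After 1 ppm O3 it was at 73.2, 121 and 94.1 RPMMM in pools 1 to 3, with a mean of 96.0 ± 23.8 RPMMM (SD, n = 3). The 1 ppm O3 pools were all below the FA pools and lay close together. After 2 ppm O3 it was at 66.5, 218 and 480 RPMMM in pools 1 to 3, with a mean of 255 ± 209 RPMMM (SD, n = 3), and these pools overlapped with both other exposures. In reads these levels came to 287, 339 and 527 in FA, 44, 67 and 81 after 1 ppm O3, and 20, 63 and 135 after 2 ppm O3. The 95% exact Poisson interval was 902 to 1072 RPMMM in FA pool 3 and 40.6 to 103 RPMMM in pool 1 of 2 ppm O3, and covers counting error only. After 2 ppm O3 the highest value was 7.22 times the lowest, and the interval of the highest, pool 3, was 402 to 568 RPMMM.

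miR-486-5p, the main product of its hairpin, followed a similar course. It was at 339, 475 and 738 RPMMM in FA pools 1 to 3, with a mean of 517 ± 203 RPMMM (SD, n = 3). After 1 ppm O3 it was at 76.5, 190 and 144 RPMMM, with a mean of 137 ± 57.1 RPMMM (SD, n = 3). Again no 1 ppm O3 pool reached the lowest FA pool. After 2 ppm O3 it was at 91.4, 130 and 469 RPMMM, with a mean of 230 ± 208 RPMMM (SD, n = 3). Here 2 pools lay within the range of the 1 ppm O3 pools and pool 3 within the range of the FA pools.

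**Figure D1:**
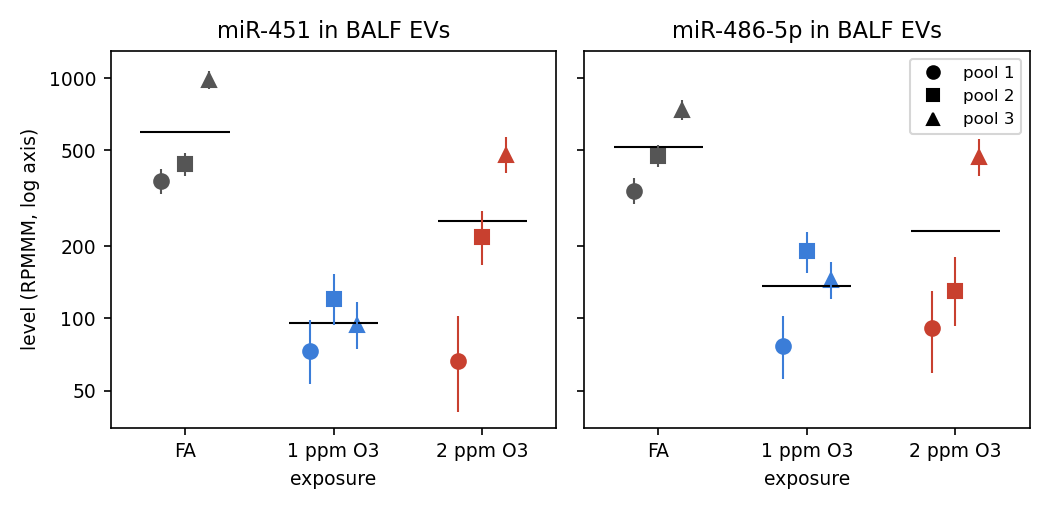
Level in RPMMM on a log axis of miR-451 (left) and miR-486-5p (right) in the 3 pools of each exposure, with 1 symbol per pool, 95% counting intervals as vertical lines and the mean of the exposure as a horizontal line. For miR-486-5p the intervals are approximate. Its reads were rounded to whole numbers, and its entry is not independent of mir-3107-5p, described below. Both miRNAs are lower in every 1 ppm O3 pool (73.2 to 121 RPMMM for miR-451) than in every FA pool (372 to 984), and the 2 ppm O3 pools (66.5 to 480) span most of this range.

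Another entry, mir-3107-5p, held the same value as miR-486-5p in 8 of the 9 pools. In FA pool 1 the values were 338 and 339 RPMMM. RefSeq lists Mir3107 also as mir-486b and places it within the span of Mir486. In pool 2 of 1 ppm O3 and in pools 1 and 2 of 2 ppm O3, miR-486-5p came to 105.5, 27.5 and 37.5 reads, which are not whole numbers, while the sum of both entries came to 211, 55.0 and 75.0 reads. The 2 entries are therefore not independent, and mir-3107-5p was not counted as a member. The sum of the pair was 1034 ± 406 RPMMM in FA, 274 ± 114 after 1 ppm O3 and 460 ± 416 after 2 ppm O3 (SD, n = 3 each). As deposited, miR-451 and miR-486-5p were near each other in level, with a ratio between 0.635 and 1.68 over the 9 pools. Against the sum, miR-451 was the lower of the pair in all 9 pools, by 1.19 to 3.15 times. Which of the miRNAs was the more abundant thus depends on how the reads of the pair are counted.

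The other 6 entries were each listed in 1 or 2 pools. mir-144-5p was at 19.5 RPMMM (15 reads) in FA pool 1 and 35.5 RPMMM (19 reads) in FA pool 3, and mir-144-3p at 24.6 RPMMM (19 reads) in FA pool 1. All entries of mir-144 were at 0 in FA pool 2 and in the 6 O3 pools. The lowest value listed for any entry was 13.6 to 18.9 RPMMM in the FA pools, 11.8 to 18.9 RPMMM in the 1 ppm O3 pools and 34.3 to 37.3 RPMMM in the 2 ppm O3 pools. The level of mir-144-5p in FA pool 3 was thus about the lowest that could be listed after 2 ppm O3, and a decrease of mir-144 from FA to 2 ppm O3 was not detectable at this depth. mir-486-3p, the other arm of mir-486, was listed only in FA pool 1, at 46.0 RPMMM (35.5 reads).

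The 3 isomiRs of miR-451 were equally sparse. The isomiR shifted by +1 was at 83.0 RPMMM (64 reads) in FA pool 1 and 32.4 RPMMM in pool 2 of 1 ppm O3. The isomiR shifted by +2 was at 29.7 and 65.4 RPMMM in FA pools 2 and 3, and that shifted by -1 at 26.7 RPMMM in pool 3 of 1 ppm O3. No isomiR of miR-451 was listed after 2 ppm O3. The entry without a shift held between 77.9% and 100% of the total of its hairpin in each pool.

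Differential expression (DE) was tested with limma on log2(RPMMM + 1) for the 461 entries whose mean over all pools exceeded 50 RPMMM. An entry was DE when its p, adjusted by Benjamini-Hochberg, was below 0.05 and its level changed at least 2-fold. Of the 8 members, 2 were above this mean, miR-451 and miR-486-5p, so that the counts below are of 2 entries. The mean of both was above 50 RPMMM in each exposure on its own. After 1 ppm O3, miR-451 was 5.73-fold lower than in FA (log2 fold change -2.52 ± 0.67, SE, adjusted p = 0.0298 from limma) and was DE. miR-486-5p was 3.82-fold lower (log2 fold change -1.93 ± 0.62, SE, adjusted p = 0.0644) and was not DE. Thus 1 of 2 members was DE and lower, against 2.82% of all tested entries, and none was DE and higher, against 10.4%. This balance of calls changed with the entries that were kept. Lower entries made up 21.3% of the DE entries as reported and 19.0% with pools scaled by the median ratio of their entries. With miR-2137 and the hairpins without a RefSeq match taken out of both the total and the tested entries, they made up 88.9%. Over all 461 tested entries the median log2 fold change was -0.08. Both members had every 1 ppm O3 pool below every FA pool, as did 18.4% of the tested entries. For each of them an exact two-sided permutation test on its own gave p = 0.1, the smallest that 3 pools against 3 allow. miR-486-5p was DE in 3 alternative settings, one of them without pool 3 of 2 ppm O3 (adjusted p = 0.0198 from limma, over all alternatives from 0.0198 to 0.212), which enters through the shared estimate of the spread.

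The DE call of miR-451 was near the threshold. It held in 13 of 20 alternative settings, over which the adjusted p ranged from 0.00640 to 0.111, while the log2 fold change stayed between -2.79 and -2.09. Several of these settings, such as those without a 2 ppm O3 pool, left the log2 fold change of miR-451 as reported. The call was lost when FA pool 2 was left out (adjusted p = 0.0661), FA pool 3 (0.111) or pool 1, 2 or 3 of 1 ppm O3 (0.108, 0.0626 and 0.0787). Of the pools compared, only FA pool 1 could be left out with the call kept (adjusted p = 0.0407 from limma).

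After 2 ppm O3, neither member was DE. Against FA, log2 levels changed by -1.50 ± 0.67 for miR-451 (SE, adjusted p = 0.0833 from limma) and -1.47 ± 0.62 for miR-486-5p (SE, adjusted p = 0.0704). Unadjusted, the p-values from limma were 0.05003 and 0.0408. Among all tested entries, 29.3% were DE and lower in this comparison and 14.3% DE and higher, and the median log2 fold change was -0.83. Relative to that median, miR-451 was at -0.68 and miR-486-5p at -0.64. Neither had all 2 ppm O3 pools below all FA pools, as 48.2% of the tested entries had. Pool 3 of 2 ppm O3 weighed on both values. Without it the log2 fold changes were -2.16 and -2.17, and both members were DE (adjusted p = 0.0173 and 0.00659 from limma). Over all alternatives the adjusted p ranged from 0.0173 to 0.470 for miR-451 and from 0.00659 to 0.462 for miR-486-5p.

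Between the O3 concentrations, no member was DE, against 22.3% of tested entries DE and lower after 2 ppm than after 1 ppm and 11.3% DE and higher. Lower entries made up 66.5% of these calls, but 7.41% with pools scaled by the median ratio of their entries. The log2 fold change of 2 ppm O3 against 1 ppm O3 was 1.02 ± 0.67 for miR-451 (SE, adjusted p = 0.236 from limma) and 0.47 ± 0.62 for miR-486-5p (SE, adjusted p = 0.537). In all tested entries the median was -0.69. Without pool 1 of 2 ppm O3, miR-451 was DE and higher after 2 ppm (log2 fold change 1.77, adjusted p = 0.0334, over alternatives from 0.0334 to 0.643). Without pool 3, the log2 fold change of miR-486-5p turned to -0.23. Of 27 pairs formed by pools that differed in exposure, 8 were in the order of the concentration for miR-451 (exact permutation test, two-sided, p = 0.277) and 6 for miR-486-5p (p = 0.123). Without pool 3 of 2 ppm O3, 2 of 21 pairs were in that order for miR-486-5p (p = 0.0286, same exact test).

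The fold changes of the 2 ppm O3 pools moved with the total by which the pools were scaled. With pools scaled by the median ratio of their entries, the median of all entries moved by 0.74 for 2 ppm O3 against FA, and the log2 fold changes of miR-451 and miR-486-5p became -0.81 and -0.77. Their distance from the median changed little, to -0.73 and -0.69. The same scaling moved the median by 0.08 for 1 ppm O3 against FA, and there miR-451 remained DE (log2 fold change -2.43, adjusted p = 0.0262 from limma). It was not DE when miR-2137 and the hairpins without a RefSeq match were left out (log2 fold change -2.41, adjusted p = 0.0647 from limma). That setting took them out of the tested entries as well as the total, so it is not a change of scaling alone. Scaling by the median ratio also moved the share of lower entries among those DE after 2 ppm O3 from 67.2% to 27.5%. The direction of both members was the same under each scaling in all 3 comparisons.

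**Figure D2:**
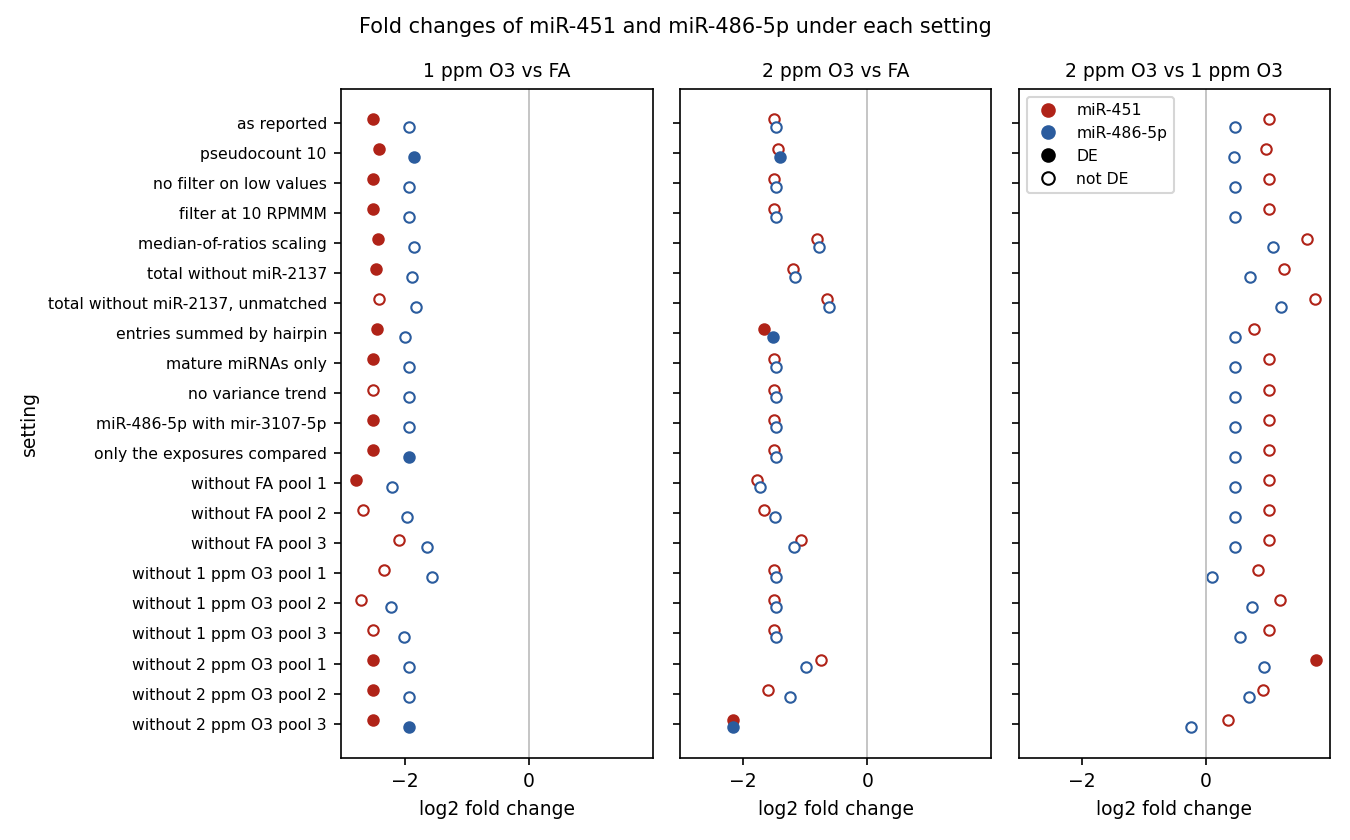
Log2 fold change of miR-451 and miR-486-5p in the 3 comparisons (panels), as reported and under each alternative setting (rows), with filled symbols where the entry was DE. Values for 1 ppm O3 against FA stay between -2.79 and -1.57, while those for 2 ppm O3 move with the scaling and with the pool left out.

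A ratio within a pool does not depend on the total. The ratio of miR-451 to miR-23a-3p, a miRNA that red cells contribute little to, is a usual index of red cell lysis in plasma. miR-23a-3p was between 17911 and 24117 RPMMM over the 9 pools, so that miR-451 was far below it throughout. The log2 ratio was -5.71, -5.46 and -4.36 in FA pools 1 to 3, -8.33, -7.59 and -7.99 after 1 ppm O3, and -8.36, -6.36 and -5.60 after 2 ppm O3. All 1 ppm O3 pools were below all FA pools, and the 2 ppm O3 pools reached from below the lowest 1 ppm O3 pool into the range of the FA pools. The means were -5.18 ± 0.72, -7.97 ± 0.37 and -6.77 ± 1.42 (SD, n = 3 each). The difference from FA was -2.79 after 1 ppm O3 (exact two-sided permutation test, p = 0.1, the smallest possible) and -1.59 after 2 ppm O3 (p = 0.2). Between the concentrations it was 1.20 (exact permutation test, two-sided, p = 0.4).

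With miR-16-5p as the denominator, a miRNA that red cells also hold in quantity, the picture was the same at 1 ppm O3. The entry used, mir-16-1-5p, was between 1095 and 1993 RPMMM in the pools. miR-16-5p is also listed as mir-16-2-5p, at 1068 to 1969 RPMMM, and the 2 entries were not summed. Whether they share reads was not tested, and the level of the ratio depends on how the pair is counted. The log2 ratio of miR-451 to mir-16-1-5p was -1.53 ± 0.92 in FA, -4.31 ± 0.31 after 1 ppm O3 and -2.75 ± 1.44 after 2 ppm O3 (SD, n = 3 each). The differences from FA were -2.78 (exact permutation test, two-sided, p = 0.1) and -1.22 (p = 0.5). The log2 ratio of miR-451 to miR-486-5p was at 0.14 ± 0.27, -0.44 ± 0.33 and 0.11 ± 0.60 (SD, n = 3 each). Exact permutation tests between exposures, two-sided, gave p from 0.2 to 0.9, in a design that cannot go below 0.1.

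**Figure D3:**
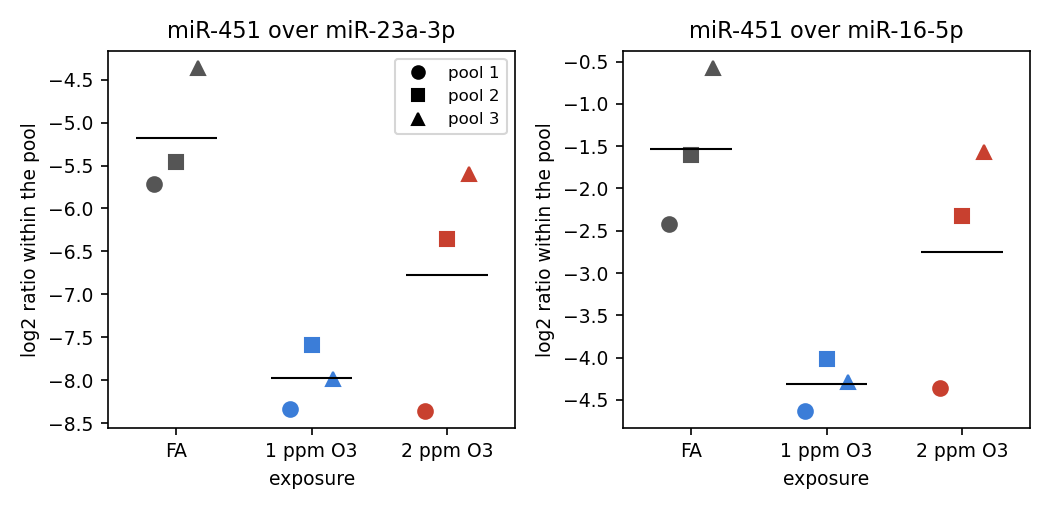
Log2 ratio within each pool of miR-451 to miR-23a-3p (left) and to miR-16-5p (right, entry mir-16-1-5p) by exposure, with 1 symbol per pool and the mean as a horizontal line. With either denominator the 1 ppm O3 pools (-8.33 to -7.59 on the left) lie below the FA pools (-5.71 to -4.36), and the 2 ppm O3 pools are spread over both ranges.

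Within exposures, miR-451 and miR-486-5p ranked the pools alike. In all 3 exposures the order of the 3 pools by miR-451 was their order by miR-486-5p: pool 3 was highest in FA and after 2 ppm O3, pool 2 after 1 ppm O3, and pool 1 was lowest in each. Deviations from the mean of the exposure on the log2 scale had a Pearson r of 0.895 over 9 pools (exact permutation within exposures, two-sided, p = 0.0185, adjusted over the 3 pairs of hairpins 0.0556) and a Spearman rho of 0.933 (p = 0.0139, adjusted 0.0417). Without the 2 pools farthest from the median in miR-451, pools 1 and 3 of 2 ppm O3, r was 0.777. The deviations were not taken anew for this, so that of the remaining 2 ppm O3 pool still depends on the pools left out. As a description, r of the levels over all 9 pools was 0.947, which mixes exposures and pools. The fluctuation of both was large beside that of other entries. Their SD within exposures was 0.95 and 0.87 on the log2 scale against a median of 0.51, and 130 and 136 of the 461 entries had a larger one. For miR-23a-3p it was 0.12.

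For mir-144 the covariation could not be measured well, since mir-144-5p was at 0 in all pools but 2 of FA. Its deviations had r = 0.22 with miR-451 (exact permutation within exposures, two-sided, p = 0.833) and r = 0.08 with miR-486-5p (p = 0.833), and both values rest on the FA pools alone. In FA, mir-144 entries were listed in pools 1 and 3, while miR-451 was higher in pool 2 than in pool 1.

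**Figure D4:**
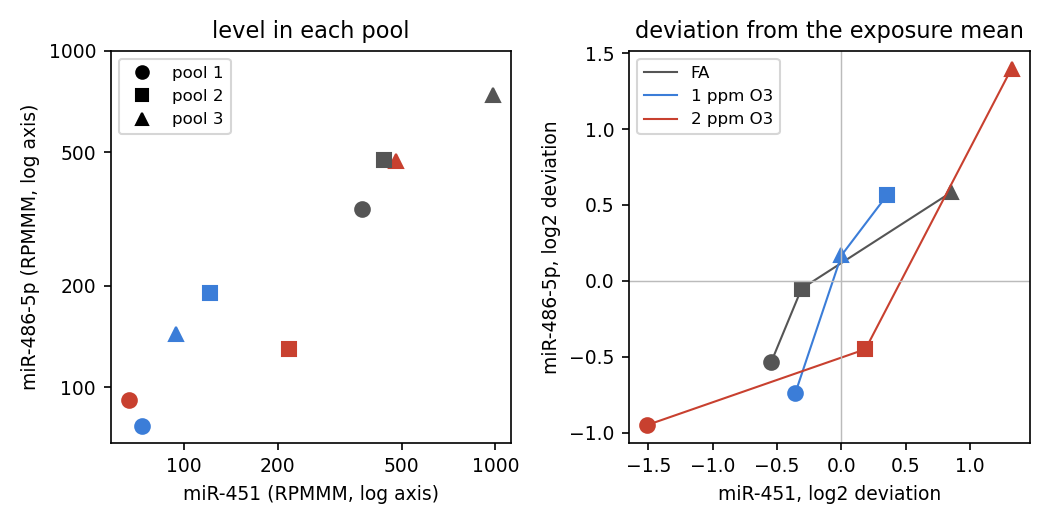
Level of miR-486-5p against miR-451 in each pool on log axes (left), and their log2 deviations from the mean of the exposure (right), with colours for the exposure, symbols for the pool and lines that join the pools of an exposure. On the right each line rises from left to right, since both miRNAs order the 3 pools of each exposure in the same way (r = 0.895).

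The entries most like each member were named by the Pearson r of log2(RPMMM + 1) over the 9 pools with mature entries of other hairpins, as a description of pools that share exposures and depth. With miR-451, after mir-3107-5p (r = 0.947), which has nearly the values of miR-486-5p, these were mir-127-3p (0.934), mir-205-5p (0.916), mir-320-3p (0.887) and mir-128-2-3p (0.848). With miR-486-5p they were mir-3107-5p (1.000), mir-127-3p (0.910), mir-128-1-3p (0.881), mir-205-5p (0.872) and mir-484 (0.855). With mir-144-5p they were mir-23b-5p (0.812), mir-205-5p (0.801), mir-672-3p (0.796), let-7b-3p (0.791) and mir-339-5p (0.727). miR-486-5p itself had a higher r with miR-451 over 9 pools than any of the other 234 mature entries considered, while within exposures it was in place 3, after mir-205-5p (0.913) and mir-3107-5p. Behind it came mir-362-3p (0.875), mir-146a-5p (0.855) and mir-200b-3p of lung epithelium (0.826). With miR-486-5p within exposures, miR-451 was also in place 3, after mir-3107-5p and mir-149-5p (0.914). There mir-200b-3p (0.883) and mir-331-3p (0.882) followed. A high r within exposures was thus not particular to the pair of members. mir-127-3p, a miRNA of the imprinted Dlk1-Dio3 region, was at 350, 424 and 779 RPMMM in FA, 18.3, 23.4 and 72.0 after 1 ppm O3, and 36.6, 82.9 and 249 after 2 ppm O3. It was DE and lower both after 1 ppm O3 (log2 fold change -3.91 ± 0.77, SE, adjusted p = 0.00652 from limma) and after 2 ppm O3 (-2.40 ± 0.77, adjusted p = 0.0249). mir-205-5p, a miRNA of basal epithelial cells, was at 1433, 1307 and 1696 RPMMM in FA and between 658 and 1017 RPMMM in the O3 pools.

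A list of other miRNAs known to be abundant in red cells (mir-15b, mir-16, mir-25, mir-92a, mir-107, mir-185 and mir-363, of which mir-363 has no entry) was set beside the members. These miRNAs are made in many other cells, and miR-16-5p is counted in the list both as mir-16-1-5p and as mir-16-2-5p. Its 14 mature entries summed to 11329 to 13480 RPMMM in the FA pools, 11596 to 12826 after 1 ppm O3 and 8788 to 11373 after 2 ppm O3, so that FA and 1 ppm O3 overlapped. After 1 ppm O3, 1 of 11 tested entries was DE and lower and none higher, against 2.82% and 10.4% of all tested entries, with a median log2 fold change of -0.04 beside -0.08 for all entries. This was mir-16-1-3p, the minor strand of a mir-16 hairpin, at 296 to 370 RPMMM in FA, 33.7 to 102 RPMMM after 1 ppm O3 and 133 to 178 RPMMM after 2 ppm O3 (log2 fold change -2.33, adjusted p = 0.00548 from limma). mir-185-5p was at 528 to 874 RPMMM in FA and 139 to 430 RPMMM after 1 ppm O3 (log2 fold change -1.39, adjusted p = 0.0579 from limma). After 2 ppm O3, 1 of 11 was DE and higher, mir-107-3p (log2 fold change 2.20, adjusted p = 0.0322 from limma), and none lower, against 14.3% and 29.3% of all tested entries. The median log2 fold change of the list was -0.34 beside -0.83 for all entries.

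Markers of other sources moved between the same pools, and their part in the levels of the members was not tested. Of the muscle miRNAs mir-1, mir-133a and mir-206, the last 2 had entries. The summed list, which counts mir-133a as 2 copies of equal value, was at 0 to 529 RPMMM in FA and at 0 in all 6 O3 pools. An entry at 0 may have had reads below the minimum listed, which was 34.3 to 37.3 RPMMM in the 2 ppm O3 pools. Each copy of mir-133a was at 0, 67.9 and 236 RPMMM in FA pools 1 to 3. In the same pools miR-451 was at 372, 438 and 984 RPMMM. There miR-486-5p, which muscle also makes, was at 339, 475 and 738 RPMMM. mir-122-5p, a miRNA of the liver that circulates in blood, was chosen after its values were seen. It was at 0, 91.8 and 131 RPMMM in FA, 0, 0 and 77.8 after 1 ppm O3, and 0, 228 and 49.7 after 2 ppm O3. The summed epithelial list was at 70909 to 79464 RPMMM in FA, 53106 to 57845 after 1 ppm O3 and 35616 to 38257 after 2 ppm O3, without overlap. Of all tested entries, 18.4% had every 1 ppm O3 pool below every FA pool and 48.2% every 2 ppm O3 pool. Of the 13 tested epithelial entries, 3 were DE and lower after 1 ppm O3 and 6 after 2 ppm O3. Over all tested entries these shares were 2.82% and 29.3%. Not all entries of the list moved alike. mir-34b-3p was at 4566 to 5726 RPMMM in FA, 2022 to 4116 after 1 ppm O3 and 5323 to 6103 after 2 ppm O3. The summed leukocyte list was at 1580 to 2206, 1502 to 2538 and 1109 to 1279 RPMMM. For mir-126, of endothelium, the sum was 81.7 to 245, 263 to 756 and 668 to 760 RPMMM.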

How the data were processed

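Small RNA libraries from 9 pools of EV RNA (3 per exposure) were sequenced, trimmed, aligned to mm9 and quantified by the authors with miRquant 2.0. The deposited values are RPMMM, which is RPM with only miRNA reads in the total, and each pool has a column. Reads were estimated here from the spacing of low values. Between 70.7% and 81.6% of low values were whole within 0.02 read, against 2.80% to 3.65% at other spacings, so no count test was run. Entries with a mean above 50 RPMMM (461) were tested on log2(RPMMM + 1) with limma 3.58.1 (R 4.3.3), in one model with a mean per exposure and a variance trend. DE required a change of at least 2-fold and an adjusted p (Benjamini-Hochberg) below 0.05. The pseudocount understates fold changes of low entries that are listed in every pool. Where an entry fell below the minimum listed in some pools, its fold change can instead be overstated. Exact two-sided permutation tests were used for single values. Fits were tested on simulated data. Positions are from the mm9 annotation. Of the 299 hairpin names, 291 matched RefSeq. Tables were made in Python 3.11.15 with pandas 2.3.3, numpy 2.4.6 and scipy 1.17.1, and plots with matplotlib 3.10.9.

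The members, marker lists and tests were chosen with earlier results of these data known. The rule for named entries takes all members, the 5 mature entries most like the main mature miRNA of each hairpin, miR-23a-3p and the marker lists. mir-3107-5p and mir-122-5p were added after their values were seen. Nothing in the labels ties pools to mice or batches beyond the number of mice, and the pool numbers used here only name the pools, so p-values measure the spread between pools. The paper lists a single exposure for each O3 concentration and separate ones for FA. An exposure run and its O3 concentration therefore cannot be told apart. RNAs other than miRNAs were not analysed here.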

Additional observations from a re-analysis of the deposited data

How the results depend on the processing

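No paired analysis was run, since each exposure had its own mice and the pool numbers used here only name the pools.

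The number of members DE after 1 ppm O3, 1 of 2, became 2 with a pseudocount of 10 and with only the exposures compared. It became 0 with miR-2137 and unmatched hairpins left out of the total and of the tested entries (adjusted p = 0.0647 for miR-451 from limma) and without the variance trend (0.0616). It lay between 0 and 2 when each pool was left out. For 2 ppm O3 against FA, the number was 0 as reported, 1 with a pseudocount of 10, 2 with entries summed by hairpin (adjusted p = 0.0451 and 0.0441 from limma), and between 0 and 2 when each pool was left out. Between the concentrations it was between 0 and 1 when each pool was left out and 0 in the other settings. The count of pairs in the order of the concentration lay between 2 and 6 for miR-486-5p when each pool was left out. With pool 3 of 2 ppm O3 left out it was 2 of 21 (exact permutation test, two-sided, p = 0.0286). For miR-451 these counts lay between 3 and 8. Differences of the log2 ratio to miR-23a-3p kept their direction in all settings run. Covariation of miR-451 and miR-486-5p had r = 0.916 with entries summed by hairpin (adjusted p = 0.0417, exact permutation), and between 0.787 and 0.957 with each pool left out, with adjusted p of 0.0417 when a 2 ppm O3 pool was left out and of 0.125 or 0.167 when any other pool was. For mir-144-5p, r lay between -0.0800 and 0.43 with miR-451 and between -0.17 and 0.37 with miR-486-5p, with the sign turned without FA pool 3. The log2 fold change of miR-486-5p between the concentrations turned to -0.23 without pool 3 of 2 ppm O3 and reached 0.94 without pool 1. The sum of miR-486-5p and mir-3107-5p, added after the data were seen, changed no DE count. The causes were not tested. Depth limits mir-144, whose listed values came to 15 to 19 reads against a minimum of about 10 reads.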
